A study of Mus musculus with 12 samples.

Results

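The 38 genes described here build the contacts that hold epithelial cells together: 12 claudins, 8 other tight junction genes, 7 genes of the desmosomal plaque, 4 desmosomal cadherins, 3 catenins with Epcam, and 3 connexins. They were chosen by name, by a rule that used no measured value but with earlier results of these data known, from the 52550 genes of the expression tables. RNA-seq had been run on D2A1 and D2.OR, cell lines from mammary tumors of different mice that arose from D2 hyperplastic alveolar nodules of mice. D2A1 is the proliferative line and D2.OR the line used as a model of dormancy, and each was grown in 2D on plastic or in 3D, on growth-factor-reduced Matrigel (Matrigel on top). Each of the 4 groups (D2A1 in 2D, D2A1 in 3D, D2.OR in 2D and D2.OR in 3D) holds 3 replicates, 12 libraries in all. The labels name no drug and no genetic change in any group, and each line stands for 1 tumor. For 3D, wells were pooled and cells were freed from the matrix with a cold recovery solution. The medium of the 2D cultures used for RNA is not given unambiguously in the sources used here, so that matrix and medium may both differ between 2D and 3D.

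Tight junctions seal the space between epithelial cells: claudins and occludin span the membranes, and the scaffold ZO-1 ties them to actin. Desmosomes rivet cells together through desmogleins and desmocollins, which plakoglobin, the plakophilins and desmoplakin anchor to keratin filaments. Gap junctions are channels made of connexins through which small molecules pass, and beta-, alpha- and p120-catenin carry classical cadherins at the adherens junction. Epithelial tumor cells that take on mesenchymal features commonly lose many of these proteins.

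Counts per library totaled 47589611 to 73325069, and 16823 genes passed the filter on low counts. The replicate number is also the batch and the sequencing lane, so these cannot be told apart, and the labels do not say whether replicates were separate cultures. P-values measure only the spread between these libraries, which may be in part technical. Libraries of batch 1 stood apart from those of batches 2 and 3 in both lines: 3.85% of all genes differed between them in D2.OR and 6.32% in D2A1. Calls that changed without batch 1 are given beside the results. Of epithelial markers in D2A1, Cdh1 did not exceed 0.28 TPM in any library and Krt8 lay between 0.78 and 2.31, whereas Krt18 lay between 92.7 and 294. Elf3, at 2.30 to 8.52 in D2A1, was lower in D2.OR within every batch, and Muc1 overlapped between the lines. Both lines carried mesenchymal RNA, with Vim at 733 TPM or more in every library. The summed level of 8 fibroblast and mesenchymal markers was higher in D2.OR too, at 4819.8 to 6492 TPM against 816 to 2580.0 in 2D and 3417 to 7295 against 1091 to 3174 in 3D, Col3a1 reaching 2217 in D2.OR and 25.5 in D2A1. The summed level of 8 luminal markers, Epcam among them and most of it Krt8 and Krt18, was 1177 to 1728 TPM in D2.OR in 2D and 211 to 303 in D2A1 in 2D, and in 3D 424 to 884 against 108 to 231. The part of these marker differences in the results between the lines was not tested. In bulk RNA, fewer cells carrying a transcript and less of it per cell cannot be told apart.

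Levels of the junction genes ranged from 0 to 1186 TPM (transcript share of a library, a level corrected for gene length). Of the 38, 22 had a mean of at least 1 TPM in some group and 16 stayed under 1 TPM in every group. The number at a mean of at least 1 TPM was 13 in D2A1 in 2D, 16 in D2A1 in 3D, 21 in D2.OR in 2D and 19 in D2.OR in 3D. A core of 8 genes reached 10 TPM or more in every library.

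**Figure D1:**
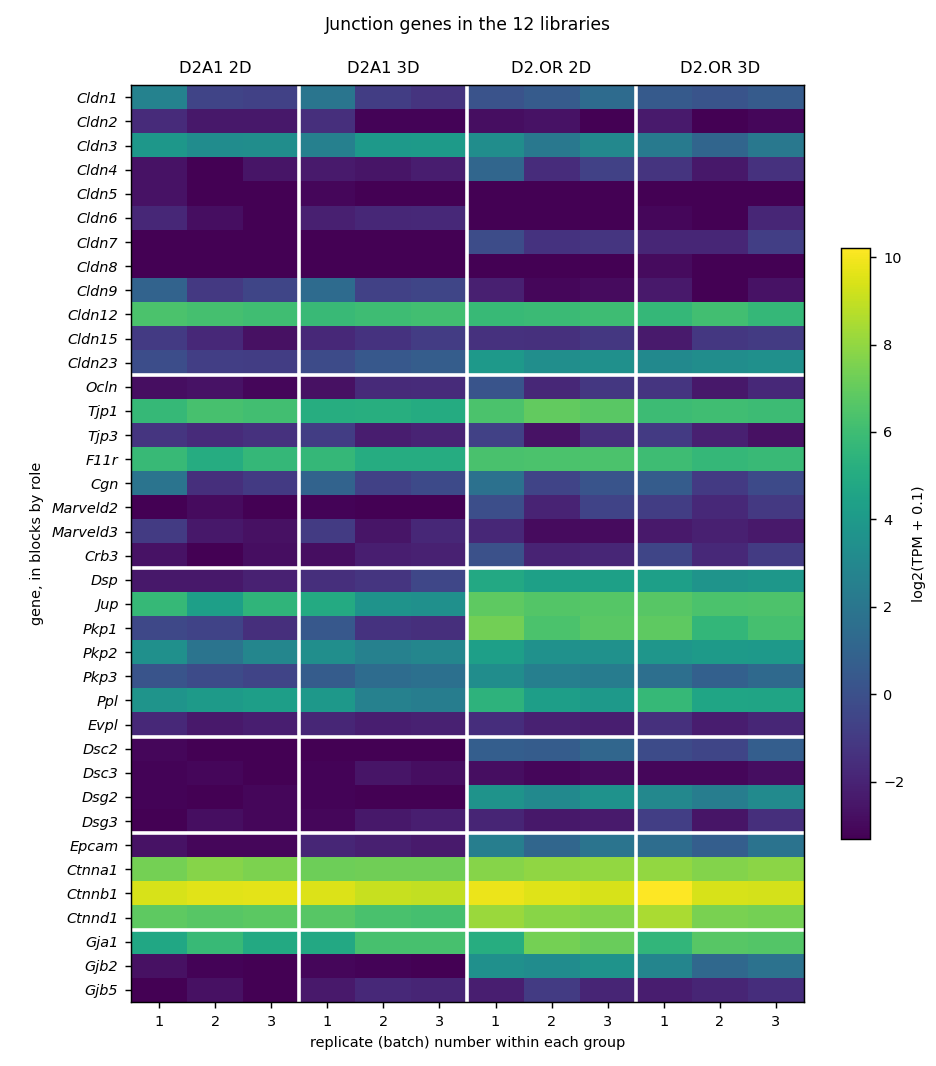
Heatmap of log2(TPM + 0.1) for the 38 junction genes (rows, in blocks by role) in the 12 libraries (columns, 3 replicates for each group). Catenins, Cldn12, Tjp1 and F11r were bright in all 12 libraries, and Dsp, Pkp1, Dsg2, Gjb2 and Epcam were bright in the D2.OR libraries alone.

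On plastic, D2.OR carried far more desmosomal RNA than D2A1, along with the connexin Gjb2 and the adhesion molecule Epcam. The tight junction scaffold Tjp1 and p120-catenin were moderately higher in D2.OR, the claudins moved in both directions, and beta-catenin did not pass the test. In edgeR's quasi-likelihood test with an adjusted p under 0.05, 20 junction genes were higher in D2.OR and 1 was lower, of the 32 that passed the filter on low counts. Of all genes tested, 49.8% were called, 25.4% higher in D2.OR and 24.4% lower. In 3D, 16 junction genes were higher and 2 were lower, beside 53.8% of all genes (27.7% higher, 26.1% lower). The median log2 fold change of the 32, D2.OR over D2A1, was 1.38 in 2D and 0.93 in 3D, whereas over all genes tested it was 0. Of the 32, 11 passed the filter with fewer than 3 D2A1 libraries above it, and a gene that passes through D2.OR has to be higher there. The same holds in the other direction for Cldn9, which was above the filter in all 6 D2A1 libraries and in 0 of D2.OR, and Marveld3 and Gjb5 were above it in fewer than 3 libraries of each line. Among the 20 genes above the filter in at least 3 libraries of each line, 11 were higher and 0 were lower in 2D by edgeR, and 10 were higher and 1 was lower in 3D, with medians of 0.90 and 0.54.

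**Figure D2:**
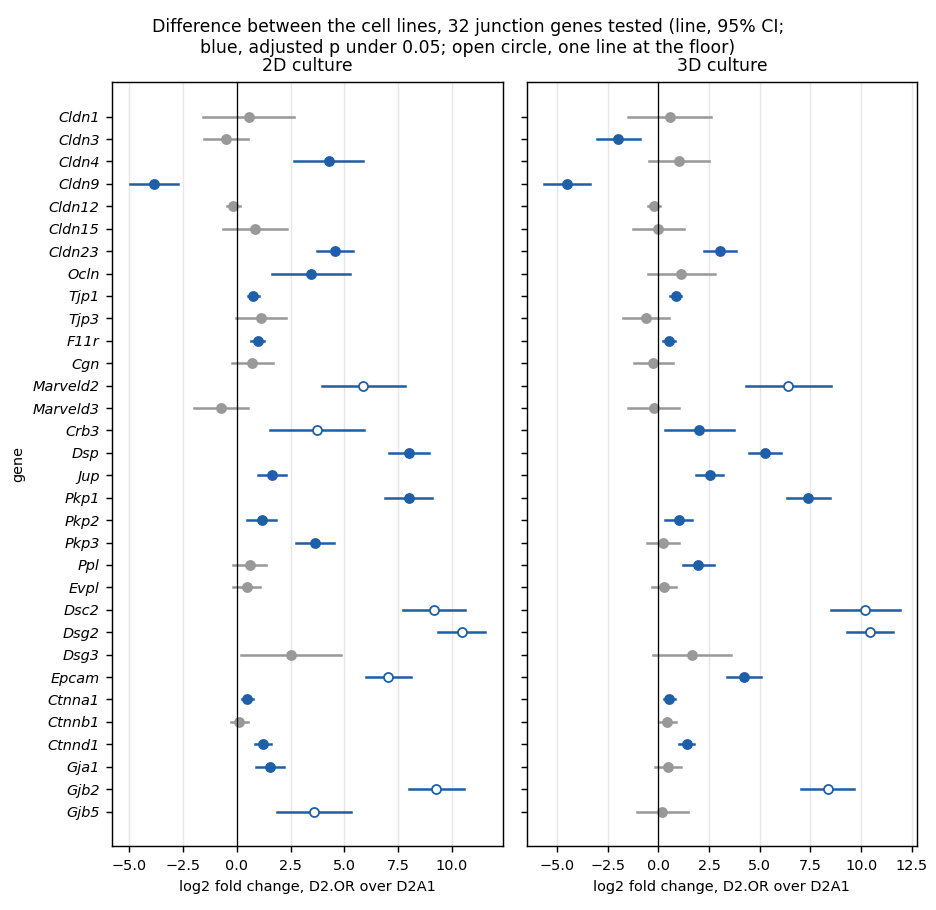
Log2 fold change of D2.OR over D2A1 in 2D (left) and 3D (right) for the 32 junction genes tested, with 95% confidence intervals; blue marks an adjusted p under 0.05 and open circles mark genes that one line held at the floor of 3 counts, whose fitted value is no measure of size. Of the filled circles in 2D, Dsp and Pkp1 lie farthest to the right, and Cldn9 lies at -3.86 in 2D and -4.50 in 3D.

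Of the desmosomal cadherins, Dsg2 and Dsc2 separated the lines in both cultures. Values here and below are TPM in batches 1, 2 and 3. The desmoglein gene Dsg2, whose product spans the desmosome, stood in D2.OR at 12.2, 8.63 and 11.7 in 2D and 8.0, 5.26 and 8.83 in 3D. In D2A1 it stood at 0.01, 0 and 0.02 in 2D and 0.01, 0 and 0 in 3D, with at most 3 counts in any library. Every D2.OR library lay far above every D2A1 library, and the level in D2.OR was at least 677-fold higher in 2D and at least 519-fold higher in 3D, taking 3 counts per D2A1 library as the floor. Its partner class, the desmocollins, followed at a lower level. Dsc2 was at 1.58, 1.42 and 2.11 in 2D and 0.74, 0.62 and 1.53 in 3D in D2.OR. D2A1 libraries held at most 1 count of Dsc2, so that D2.OR was at least 84.1-fold higher in 2D and at least 56.9-fold higher in 3D. The 2 remaining desmosomal cadherins were near absent from both lines: Dsc3 did not exceed 0.07 TPM and Dsg3 did not exceed 0.47 TPM in any library. Dsg3 did not pass the test in either culture (log2 fold change 2.51 ± 1.03, adjusted p = 0.0692 in 2D; 1.66 ± 0.85, adjusted p = 0.124 in 3D).

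Plaque genes divided into a part held by both lines and a part held by D2.OR. Desmoplakin, encoded by Dsp, links the plaque to keratins, and its level in D2.OR was 28.3, 20.3 and 20.8 in 2D and 20.1, 12.8 and 14.4 in 3D. In D2A1 Dsp was at 0.08, 0.08 and 0.14 in 2D and 0.25, 0.32 and 0.63 in 3D. No library of one line came near the other, and the log2 fold change was 8.0 ± 0.41, adjusted p = 1.24e-06 in 2D and 5.25 ± 0.35, adjusted p = 5.65e-06 in 3D. For plakophilin 1 (Pkp1), a plaque protein of stratified and glandular epithelia, D2.OR levels were 160.5, 82.8 and 106 in 2D and 116, 49.4 and 75.2 in 3D, against 0.67, 0.57 and 0.26 in 2D and 1.22, 0.29 and 0.26 in 3D in D2A1. Pkp1 and Dsp thus had nearly equal log2 fold changes in 2D, and that of Pkp1 was 8.0 ± 0.48, adjusted p = 3.05e-06 in 2D and 7.38 ± 0.47, adjusted p = 4.10e-06 in 3D. In 3D Pkp1 reached its highest D2A1 value, in batch 1.

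Plakoglobin (Jup), which serves desmosomes and adherens junctions alike, was abundant in both lines. In D2.OR, Jup was at 116, 96.8 and 102 in 2D and 104, 83.9 and 85.8 in 3D, and in D2A1 at 54.3, 19.9 and 45.7 in 2D and 30.4, 12.2 and 10.8 in 3D. The groups did not overlap, and the log2 fold change was 1.63 ± 0.29, adjusted p = 0.00156 in 2D and 2.54 ± 0.30, adjusted p = 0.00014 in 3D. Plakophilin 2 (Pkp2) followed the same order at a lower level, with 20.2, 11.5 and 11.6 in 2D and 13.8, 16.5 and 15.3 in 3D in D2.OR and 10.97, 3.56 and 7.28 in 2D and 10.4, 6.10 and 7.33 in 3D in D2A1. Its log2 fold change was 1.16 ± 0.30, adjusted p = 0.0111 in 2D and 1.0 ± 0.30, adjusted p = 0.0193 in 3D. In 2D the call was lost without batch 2 (0.0597) and without batch 3 (0.0615). That in 3D was lost without the batch term (adjusted p = 0.0608), without batch 2 (0.0855), without batch 3 (0.127) and in 4 fits that left out a single 3D library of batch 2 or 3.

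Plakophilin 3 (Pkp3) differed between the lines on plastic, where D2.OR held 9.93, 5.56 and 4.98 and D2A1 1.03, 0.75 and 0.58. In 3D the values overlapped, at 3.02, 1.69 and 2.40 in D2.OR and 1.41, 2.65 and 3.09 in D2A1. The log2 fold change was 3.65 ± 0.40, adjusted p = 9.58e-05 in 2D and 0.23 ± 0.36, adjusted p = 0.607 in 3D, where its 95% confidence interval ran from -0.58 to 1.04. Periplakin (Ppl), a cytolinker related to desmoplakin, was at 43.5, 19.04 and 15.7 in 2D and 54.4, 24.4 and 23.6 in 3D in D2.OR and at 12.7, 16.4 and 19.02 in 2D and 14.8, 6.17 and 5.24 in 3D in D2A1. In 2D the lines overlapped (log2 fold change 0.60 ± 0.34, adjusted p = 0.171), and in 3D they did not (1.97 ± 0.34, adjusted p = 0.0012). The interaction of line and culture was not called for Ppl (1.38 ± 0.47, adjusted p = 0.198), and without batch 1 it was (1.95 ± 0.19, adjusted p = 0.00299). Envoplakin (Evpl) stayed at 0.09 to 0.27 TPM in the 12 libraries and passed in neither culture.

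Epcam, a homophilic adhesion molecule of epithelia, was at 5.42, 2.08 and 3.57 in 2D and 2.76, 1.54 and 3.49 in 3D in D2.OR. In D2A1 it was at 0.06, 0.02 and 0.02 in 2D and 0.17, 0.13 and 0.10 in 3D. D2.OR was at least 80.9-fold higher in 2D, and in 3D, where D2A1 libraries held up to 13 counts, the log2 fold change was 4.23 ± 0.37, adjusted p = 2.47e-05. By group mean the 3 catenins were the most abundant of the 38 genes in both lines. Beta-catenin (Ctnnb1) was at 896, 739 and 669 in 2D and 1186, 668 and 645 in 3D in D2.OR and 682, 771 and 809 in 2D and 723, 535 and 498 in 3D in D2A1. These values overlapped, and Ctnnb1 passed in neither culture (log2 fold change 0.11 ± 0.18, adjusted p = 0.622 in 2D; 0.45 ± 0.18, adjusted p = 0.0531 in 3D), and without batch 1 it was called in 3D (0.31 ± 0.10, adjusted p = 0.0257). P120-catenin (Ctnnd1), which keeps cadherins at the membrane, was higher in every D2.OR library, with 287, 225 and 201 in 2D and 365, 180.0 and 165 in 3D against 116, 105 and 111 in 2D and 103, 79.1 and 75.3 in 3D. Its log2 fold change was 1.22 ± 0.17, adjusted p = 0.000344 in 2D and 1.41 ± 0.17, adjusted p = 0.000147 in 3D. Alpha-catenin (Ctnna1), the link to actin, stood at 219, 248 and 257 in 2D and 255, 205 and 229.6 in 3D in D2.OR and 168, 214 and 185 in 2D and 151, 155 and 157 in 3D in D2A1. Among the genes called in 2D this was the smallest difference, at 0.48 ± 0.11, adjusted p = 0.00576 and 0.55 ± 0.11, adjusted p = 0.00266 in 3D, and the call in 2D was lost without batch 3 (0.102) and by limma on log2(TPM + 0.1) (0.0585).

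Of the connexins, Gjb2 was held by D2.OR and Gja1 by both lines. Gjb2 (connexin 26) was at 10.9, 9.50 and 12.2 in 2D and 6.94, 2.29 and 3.37 in 3D in D2.OR and at 0.05, 0.01 and 0 in 2D and 0.02, 0.01 and 0 in 3D in D2A1, where no library had more than 3 counts. D2.OR was at least 285-fold higher in 2D and at least 128-fold higher in 3D. Gja1 (connexin 43), the widespread connexin, made up 75.7% or more of the summed connexin TPM in every library. It was at 34.4, 165 and 141 in 2D and 48.2, 103 and 97.2 in 3D in D2.OR and 26.1, 55.6 and 29.4 in 2D and 29.1, 77.1 and 76.9 in 3D in D2A1. Batch 1 was the lowest in every group, and the lines overlapped in both cultures. With the batch term the log2 fold change was 1.53 ± 0.29, adjusted p = 0.00235 in 2D, lost without batch 2 (0.0581), and 0.47 ± 0.28, adjusted p = 0.184 in 3D. Gjb5 did not exceed 0.42 TPM in any library, and in 2D, where D2A1 held at most 3 counts, D2.OR was at least 4.24-fold higher (2.42-fold without batch 2).

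**Figure D3:**
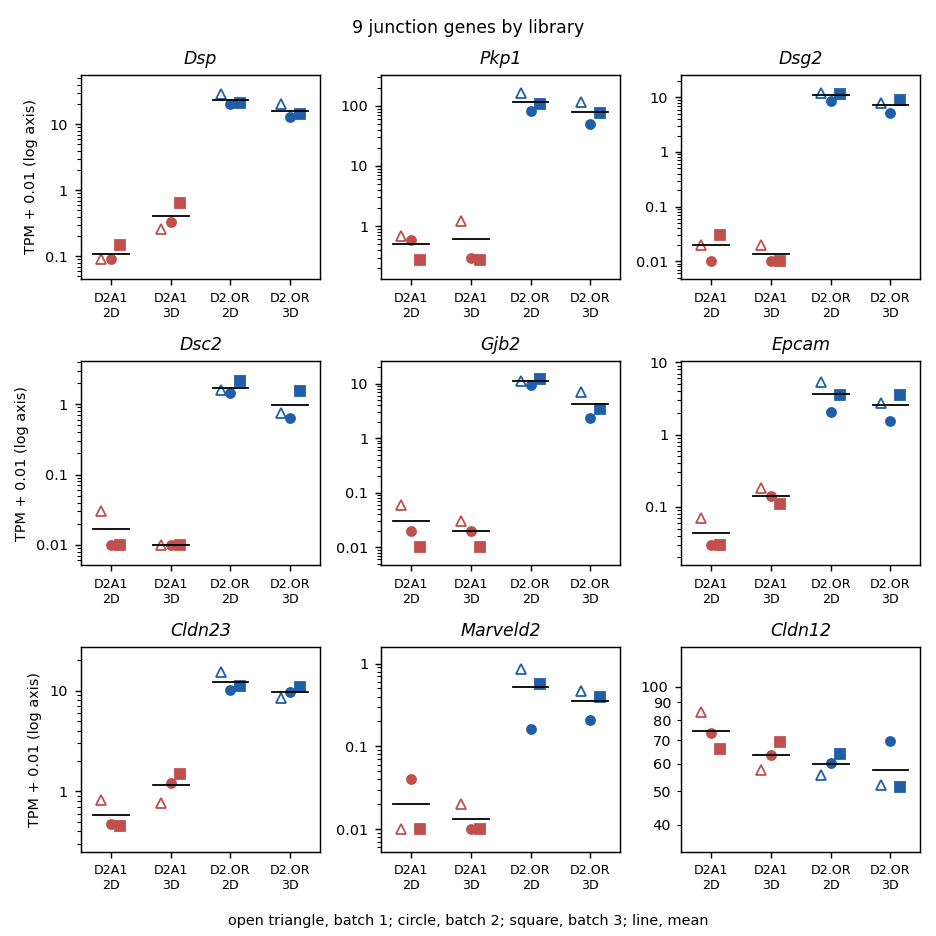
TPM + 0.01 (log axis) of 9 junction genes in each library of the 4 groups, with batches marked by symbol and the mean by a line. For Dsp, Pkp1, Dsg2, Dsc2, Gjb2, Epcam, Cldn23 and Marveld2 every D2.OR library lies above every D2A1 library, and for Cldn12 the lines overlap in 3D.

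Promoters of Dsp, Epcam and Gjb2 are shown because these genes, each in another class of contact, carried RNA in D2.OR and next to none in D2A1 in 2D. The sequences are the 250 bases before the RefSeq start, on GRCm38.p6, read 5′ to 3′ along the gene. Dsp lies at chromosome 13, 38151294 to 38198577, plus strand, and its window is chr13:38151044-38151293 on the plus strand. The Epcam gene spans chromosome 17, 87635979 to 87651106, plus strand, with the window chr17:87635729-87635978 on the plus strand. Gjb2 occupies chromosome 14, 57098600 to 57104702, minus strand, and its window is chr14:57104703-57104952 on the minus strand. Capitals mark, on either strand, the E-box CAGGTG, which factors of the Snail and Zeb families recognize, and the GC box GGGCGG of Sp1 and KLF factors.
Dsp: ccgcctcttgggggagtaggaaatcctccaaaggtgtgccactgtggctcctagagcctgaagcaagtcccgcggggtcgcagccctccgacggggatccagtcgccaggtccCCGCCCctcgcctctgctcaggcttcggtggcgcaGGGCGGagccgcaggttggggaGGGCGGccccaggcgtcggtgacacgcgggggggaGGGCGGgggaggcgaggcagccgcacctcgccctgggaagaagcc
Epcam: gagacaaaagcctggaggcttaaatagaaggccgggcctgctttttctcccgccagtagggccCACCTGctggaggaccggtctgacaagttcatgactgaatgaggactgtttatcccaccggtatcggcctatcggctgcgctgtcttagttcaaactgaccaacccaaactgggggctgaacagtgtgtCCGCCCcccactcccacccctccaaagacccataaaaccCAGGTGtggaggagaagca
Gjb2: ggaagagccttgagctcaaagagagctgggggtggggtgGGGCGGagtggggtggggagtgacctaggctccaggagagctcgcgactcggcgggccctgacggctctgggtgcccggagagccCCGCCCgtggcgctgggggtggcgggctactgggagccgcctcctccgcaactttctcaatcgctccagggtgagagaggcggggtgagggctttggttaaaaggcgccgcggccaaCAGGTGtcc
The Epcam window held 2 E-boxes and 1 GC box, that of Gjb2 held 1 and 2, and that of Dsp held 0 and 4. RefSeq windows were matched for 24 of the 38 genes (33 windows, since some genes have several starts), and 11 of the 33, from 9 genes, held the E-box, beside 17.2% of 32851 windows of all genes. GC boxes were in 24 of the 33 windows, beside 32.7% of all. The windows also held more CpG, with a median of 13 CpG against 6 over all windows. The motif TGANTCA of AP-1 was in 4 of the 33 beside 6.75% of all, and AACCGGTT of the Grhl factors was in 0 of the 33 beside 0.116% of all. Each motif was sought by its letters on both strands and counted separately, and a match describes letters only.

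Among tight junction genes other than claudins, Tjp1 and F11r were held by both lines at high level. Tjp1 encodes ZO-1, and its level in D2.OR was 83.8, 123 and 107 in 2D and 63.1, 65.8 and 62.8 in 3D. D2A1 had 53.6, 77.8 and 70.3 in 2D and 35.1, 36.0 and 32.3 in 3D. In each culture all D2.OR libraries were above all D2A1 libraries, by a log2 fold change of 0.77 ± 0.12, adjusted p = 0.000603 in 2D and 0.86 ± 0.12, adjusted p = 0.000308 in 3D. The adhesion molecule JAM-A, encoded by F11r, was at 79.4, 82.4 and 83.5 in 2D and 65.0, 51.4 and 57.5 in 3D in D2.OR and 55.1, 33.7 and 51.9 in 2D and 52.1, 32.8 and 33.7 in 3D in D2A1. F11r differed by 0.97 ± 0.14, adjusted p = 0.000444 in 2D and, with 1 D2A1 library among the D2.OR values, by 0.53 ± 0.14, adjusted p = 0.00973 in 3D, where the call was lost without batch 2 (0.0536), without batch 3 (0.108) and without the batch 3 library of D2A1 (0.0518). Cingulin (Cgn), which binds ZO-1, showed more spread between batches than between lines, with 3.23, 0.58 and 1.03 in 2D and 1.45, 0.40 and 0.72 in 3D in D2.OR and 3.65, 0.25 and 0.40 in 2D and 1.91, 0.51 and 0.71 in 3D in D2A1. It passed in neither culture (log2 fold change 0.71 ± 0.43, adjusted p = 0.196 in 2D; -0.24 ± 0.42, adjusted p = 0.651 in 3D), and without batch 1 it was higher in D2.OR in 2D (1.38 ± 0.24, adjusted p = 0.00274).

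The remaining tight junction genes were scarce. Marveld2 (tricellulin), which seals corners where 3 cells meet, lay between 0.15 and 0.84 TPM in D2.OR and had at most 2 counts in a D2A1 library, so that D2.OR was at least 17.7-fold higher in 2D and at least 12.6-fold higher in 3D. Occludin (Ocln) was at 1.04, 0.18 and 0.36 in 2D and 0.32, 0.08 and 0.20 in 3D in D2.OR and 0.04, 0.06 and 0.02 in 2D and 0.05, 0.21 and 0.22 in 3D in D2A1. It was called in 2D (3.46 ± 0.80, adjusted p = 0.00642, lost without batch 3 at 0.0606) and not in 3D (1.13 ± 0.73, adjusted p = 0.216). Crb3, a polarity protein of the apical membrane, was in D2.OR at 0.93, 0.15 and 0.17 in 2D and 0.62, 0.20 and 0.41 in 3D. In 2D it exceeded the D2A1 floor at least 3.83-fold, or 1.56-fold without batch 1, and in 3D its log2 fold change was 2.02 ± 0.75, adjusted p = 0.0468. Crb3 kept its call in 16 of 20 alternative fits in 2D and in 4 of 20 in 3D. Tjp3 (ZO-3) and Marveld3 did not exceed 0.52 TPM in any library and passed in neither culture.

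Claudins showed no common direction between the lines. Cldn12 supplied 65.4% to 86.8% of the summed claudin TPM of a library and was at 55.6, 60.1 and 63.9 in 2D and 51.98, 69.6 and 51.4 in 3D in D2.OR and 84.6, 73.4 and 66.1 in 2D and 57.6, 63.5 and 69.2 in 3D in D2A1. In 2D every D2.OR library was below every D2A1 library and in 3D the lines overlapped, but Cldn12 was not called (log2 fold change -0.16 ± 0.14, adjusted p = 0.366 in 2D; -0.22 ± 0.14, adjusted p = 0.203 in 3D), and its 95% confidence interval ran from -0.47 to 0.15 in 2D. Cldn23 was the claudin with the clearest excess in D2.OR, at 15.2, 10.1 and 11.1 in 2D and 8.40, 9.80 and 10.96 in 3D against 0.81, 0.46 and 0.44 in 2D and 0.76, 1.21 and 1.48 in 3D in D2A1. That difference was 4.56 ± 0.38, adjusted p = 1.94e-05 in 2D and 3.05 ± 0.34, adjusted p = 0.000111 in 3D. Cldn3, a sealing claudin of simple epithelia, was at 9.82, 4.16 and 7.89 in 2D and 4.56, 2.0 and 4.11 in 3D in D2.OR and 13.98, 9.45 and 9.97 in 2D and 5.92, 15.4 and 16.5 in 3D in D2A1. The lines overlapped in 2D (-0.52 ± 0.45, adjusted p = 0.369), and in 3D every D2.OR library was below every D2A1 library (-1.98 ± 0.47, adjusted p = 0.00661), a call lost without batch 2 (0.0969) or batch 3 (0.0785).

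Cldn9 was lower in D2.OR in both cultures. It lies next to Cldn6 on the opposite strand, and whether counting used strand is not given in the sources used here. It was at 1.90, 0.38 and 0.61 in 2D and 2.52, 0.52 and 0.61 in 3D in D2A1 and 0.13, 0.02 and 0.03 in 2D and 0.09, 0 and 0.06 in 3D in D2.OR, without overlap. Its log2 fold change was -3.86 ± 0.49, adjusted p = 0.000253 in 2D and -4.50 ± 0.50, adjusted p = 9.73e-05 in 3D. Cldn1 was at 1.0, 1.38 and 2.54 in 2D and 1.32, 1.06 and 1.37 in 3D in D2.OR and 6.39, 0.59 and 0.52 in 2D and 3.75, 0.45 and 0.31 in 3D in D2A1, and the order of the lines turned with the batch. Within batches 1, 2 and 3 the log2 difference of D2.OR over D2A1 was -2.52, 1.34 and 2.36 in 2D and -1.51, 1.18 and 2.04 in 3D, and the pooled value passed in neither culture (0.56 ± 0.94, adjusted p = 0.647 in 2D). Without batch 1, Cldn1 was higher in D2.OR in both (1.92 ± 0.35, adjusted p = 0.00314 in 2D; 1.63 ± 0.35, adjusted p = 0.00636 in 3D). Cldn4, on chromosome 5 beside Cldn3, was at 2.10, 0.23 and 0.52 in 2D and 0.31, 0.08 and 0.28 in 3D in D2.OR and did not exceed 0.11 TPM in D2A1. It was called in 2D (4.28 ± 0.71, adjusted p = 0.00107) and not in 3D (1.03 ± 0.66, adjusted p = 0.209). Cldn15 lay between 0.05 and 0.43 TPM and passed in neither culture. Cldn2, Cldn5, Cldn6 and Cldn8 did not exceed 0.26 TPM in any library, Cldn7 did not exceed 0.78 TPM, and these 5 were not tested. Cldn7 had 0 counts in all D2A1 libraries, which allows up to 3 counts per library, and D2.OR, at 0.78, 0.30 and 0.32 in 2D and 0.17, 0.17 and 0.48 in 3D, was at least 4.07-fold higher in 2D (1.95-fold without batch 1) and at least 2.29-fold higher in 3D.

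Genes of the same pathways outside the 38 were read from lists chosen with earlier results in view. Of 6 other genes tested from a list of desmosomal proteins and the keratins they anchor, 5 were higher in D2.OR in 2D and 0 were lower, beside 25.4% and 24.4% of all genes. Those higher were keratin 8 (Krt8, log2 fold change 9.56 ± 0.55, adjusted p = 2.24e-06), keratin 7 (Krt7, 7.59 ± 0.64, adjusted p = 2.27e-05), keratin 14 (Krt14, at least 21.4-fold), Perp (2.51 ± 0.29, adjusted p = 0.000129) and keratin 18 (Krt18, 1.25 ± 0.38, adjusted p = 0.022). All but Perp are keratins, of which Krt7, Krt8 and Krt18 are also luminal markers, and Pkp4 was not called (0.16 ± 0.17, adjusted p = 0.461). In 3D 4 were higher and 0 were lower, beside 27.7% and 26.1%. Of 16 adherens junction genes 9 were higher and 2 were lower in 2D, and 9 and 3 in 3D. E-cadherin (Cdh1), to which the catenins bind, was in D2.OR at 183, 22.2 and 22.99 in 2D and 61.3, 8.93 and 11.5 in 3D, with batch 1 far above the others, and its log2 fold change was 9.81 ± 0.33, adjusted p = 1.23e-07 in 2D. Nectin1 was higher (2.60 ± 0.25, adjusted p = 4.98e-05) and Ssx2ip was lower (-1.49 ± 0.13, adjusted p = 2.97e-05). N-cadherin (Cdh2) did not exceed 0.14 TPM in any library.

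Of 34 other tight junction and polarity genes tested, 11 were higher and 10 were lower in each culture, shares near those of all genes. Those higher in D2.OR included Lsr, a tricellular junction protein (56.5, 51.98 and 64.6 TPM in D2.OR and 0.22, 0.04 and 0.03 in D2A1 in 2D), Patj (3.28 ± 0.14, adjusted p = 4.65e-07) and Prkcz (5.30 ± 0.36, adjusted p = 6.34e-06), and those lower included Jam2 (-2.85 ± 0.61, adjusted p = 0.00427), Pard6g (-2.19 ± 0.20, adjusted p = 3.38e-05) and Magi1 (-1.14 ± 0.11, adjusted p = 5.86e-05). Of 9 other gap junction genes 3 were higher and 1 was lower in each culture, beside 25.4% and 24.4% of all genes in 2D and 27.7% and 26.1% in 3D. Among these, Panx1 differed by 1.61 ± 0.28, adjusted p = 0.00131 and Gja4 by 1.82 ± 0.42, adjusted p = 0.00629.

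Of 13 epithelial transcription and splicing factors, 7 were higher and 1 was lower in D2.OR in 2D, and 5 and 1 in 3D, beside 25.4% and 24.4% of all genes in 2D and 27.7% and 26.1% in 3D. Esrp1, an epithelial splicing regulator, was at 1.42, 0.77 and 0.91 TPM in D2.OR and 0.06, 0.01 and 0.01 in D2A1 in 2D. Its paralog Esrp2 differed by 2.04 ± 0.22, adjusted p = 8.37e-05 and the protease gene St14, which the list also held, was at least 48.9-fold higher in 2D. Grhl2, an activator of junction genes, differed by 1.83 ± 0.68, adjusted p = 0.0493 in 2D and by -0.09 ± 0.63, adjusted p = 0.912 in 3D. Ovol1 and Ovol2 did not exceed 0.26 TPM in any library. Of 8 transcription factors of the epithelial-mesenchymal transition, 5 were higher and 1 was lower in 2D, and 4 and 1 in 3D, to be read beside the same shares of all genes. Prrx1 (2.63 ± 0.24, adjusted p = 3.32e-05), Snai2 (1.70 ± 0.18, adjusted p = 8.24e-05), Zeb2 (1.15 ± 0.13, adjusted p = 0.00013), Twist2 (3.36 ± 0.56, adjusted p = 0.00115) and Snai1 (0.78 ± 0.24, adjusted p = 0.0234) were higher in D2.OR in 2D, and Zeb1 was lower, at 10.9, 3.66 and 2.88 in 2D and 4.34, 1.34 and 1.23 in 3D in D2.OR against 18.1, 16.2 and 24.1 in 2D and 16.4, 11.8 and 14.6 in 3D in D2A1 (-2.68 ± 0.35, adjusted p = 0.000287).

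Culture in 3D moved few junction genes past the threshold in either line. Tjp1 fell in both. Dsp and Pkp3 rose in D2A1, and in D2.OR neither passed the test (log2 fold change -0.62 ± 0.29, adjusted p = 0.303 for Dsp; -1.66 ± 0.36, adjusted p = 0.057 for Pkp3). In D2.OR 1 of the 32 genes was called, beside 1.62% of all genes (0.838% higher, 0.785% lower), and the median log2 fold change (3D over 2D) was -0.44. In D2A1 3 of the 32 were called, beside 3.48% of all genes (1.37% higher, 2.12% lower), and the median was 0.25. At an unadjusted p under 0.05 there were 8 in D2.OR, beside 17.6% of all genes, and 9 in D2A1, beside 31.4%. The summed luminal markers given above were lower in every 3D library of D2.OR than in any of its 2D libraries, adipocyte markers summed to 8.96 to 87.98 TPM in D2.OR in 3D and to 3.07 or less in the other groups, and their part in the culture results was not tested.

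Tjp1 had dropped in all 3 batches of both lines. The log2 fold change was -0.73 ± 0.12, adjusted p = 0.0246 in D2.OR, with values of -0.50, -0.91 and -0.78 within batches 1, 2 and 3. In D2A1 it was -0.82 ± 0.12, adjusted p = 0.0213, with -0.51, -0.98 and -0.96 within batches. Dsp in D2A1 changed by 2.13 ± 0.37, adjusted p = 0.0354, from 0.08, 0.08 and 0.14 TPM in 2D to 0.25, 0.32 and 0.63 in 3D, which left it far under the D2.OR level. Pkp3 in D2A1 changed by 1.76 ± 0.38, adjusted p = 0.0466. These 4 calls were lost without the batch term, and without batch 2 or batch 3, where their adjusted p lay between 0.353 and 0.539. Leaving out a single 2D or 3D library of batch 2 or 3 from the line concerned also ended each call. The calls of Dsp and Pkp3 were further lost by limma on log2(TPM + 1) (0.205 and 0.0748) and on log2(TPM + 0.1) (0.0652 and 0.0723), and when any D2.OR library of batch 2 or 3 was left out, and that of Tjp1 in D2.OR by limma on log2(TPM + 0.1) (0.0664).

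For 5 genes, picked out for this pattern, the difference between 3D and 2D had opposite signs in the lines in every batch. How many of all genes tested showed the same pattern was not determined. Dsp differed by -0.59, -0.75 and -0.50 within the batches of D2.OR and by 1.57, 2.26 and 2.22 within those of D2A1. For Pkp3 the differences were -1.68, -1.74 and -1.54 in D2.OR and 1.08, 2.01 and 1.80 in D2A1. Epcam differed by -1.09, -0.45 and -0.04 in D2.OR and by 1.21, 1.93 and 1.58 in D2A1. Cldn4 and Ocln, both scarce, were the others. Epcam had at most 3 counts in any D2A1 library in 2D, the floor, and at most 13 in 3D. Its fitted change in D2A1 and its interaction are thus no measure of size. The interaction of line and culture, which tests the difference between the 2 changes, called 0 of the 32 by edgeR, beside 0.0238% of all genes (0.0178% with a positive value, 0.00594% with a negative one). At an unadjusted p under 0.05 there were 12, beside 17.8% of all genes, DESeq2 called 4 (Dsp, Pkp3, Epcam and Cldn23), beside 5.96%, and limma on log2(TPM + 1) or log2(TPM + 0.1) called 0. The interaction was -2.75 ± 0.47, adjusted p = 0.0892 for Dsp, -3.42 ± 0.52, adjusted p = 0.0716 for Pkp3 and -2.80 ± 0.63, adjusted p = 0.11 for Epcam.

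**Figure D4:**
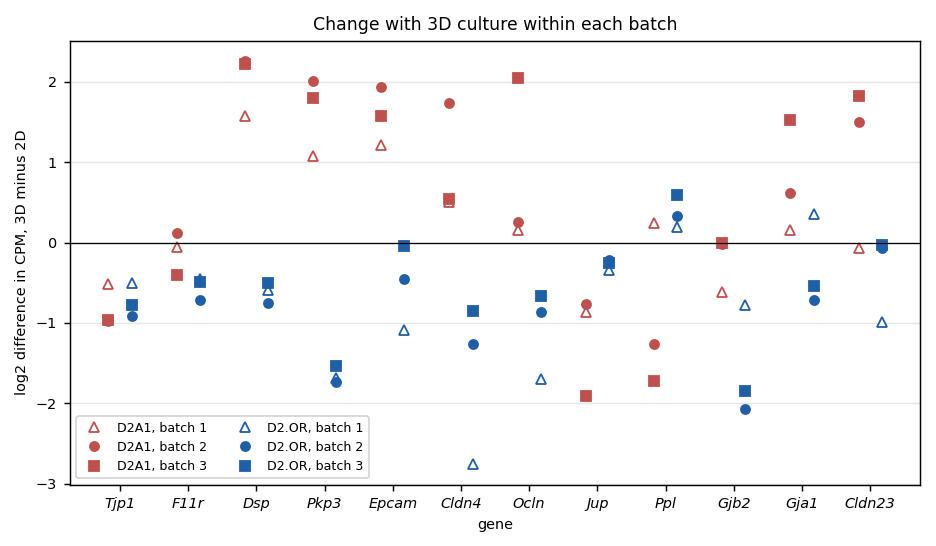
Log2 difference in CPM (counts scaled to library size), 3D minus 2D, within each batch of D2A1 (red) and D2.OR (blue) for 12 junction genes, with batch 1 as open triangles. Tjp1 lies below 0 in all 6 comparisons, and Dsp, Pkp3, Epcam, Cldn4 and Ocln lie above 0 in D2A1 and below 0 in D2.OR.

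Without batch 1 the counts rose, together with those of all genes. In D2A1 12 of the 30 junction genes tested were then called, 7 higher and 5 lower in 3D, beside 36.3% of all genes. Those higher were Epcam (2.88 ± 0.78, adjusted p = 0.0262, from a 2D level at the floor), Dsp, Pkp3, Cldn23 (1.72 ± 0.19, adjusted p = 0.000936), Cgn, Gja1 (1.05 ± 0.21, adjusted p = 0.0077) and Cldn3, and those lower were Ppl (-1.5 ± 0.14, adjusted p = 0.000502), Jup (-1.38 ± 0.26, adjusted p = 0.00688), Tjp1, Ctnnb1 and Ctnnd1. In D2.OR 4 were called, all lower, beside 8.38% of all genes: Gjb2 (-1.97 ± 0.24, adjusted p = 0.00573), Pkp3 (-1.65 ± 0.25, adjusted p = 0.0107), Tjp1 (-0.85 ± 0.08, adjusted p = 0.00247) and F11r (-0.60 ± 0.14, adjusted p = 0.0463). The interaction then called 8, beside 17.8% of all genes: Ppl with a positive value (1.95 ± 0.19, adjusted p = 0.00299) and Pkp3 (-3.61 ± 0.37, adjusted p = 0.00299), Dsp (-2.93 ± 0.35, adjusted p = 0.00436), Epcam, Cldn3, Cldn23, Gja1 and Cgn with negative ones. These calls rest on 2 libraries in each group. Between the lines, 21 genes were higher in D2.OR and 1 was lower in 2D, beside 53.8% of all genes, and 17 and 2 in 3D, beside 56.9%.

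Batch 1 differed from batches 2 and 3 for the tight junction genes Cldn1, Cldn9 and Cgn in D2A1, and for Gja1 in D2.OR. In D2A1 5 of the 32 genes were called, all higher in batch 1, beside 6.32% of all genes (4.34% higher, 1.98% lower). Cldn1, at chromosome 16, 26356642 to 26371841, minus strand, had the largest value (3.38 ± 0.26, adjusted p = 0.00169): 6.39 TPM in 2D and 3.75 in 3D in batch 1, against 0.31 to 0.59 in batches 2 and 3. It was called in all 13 alternatives. The others were Cgn (2.66 ± 0.43, adjusted p = 0.0148), Cldn9 (2.03 ± 0.37, adjusted p = 0.0216), Pkp1 (1.5 ± 0.31, adjusted p = 0.0315) and Jup (1.12 ± 0.21, adjusted p = 0.0245). Leaving out the batch 2 library of D2A1 in 2D ended the calls of Cgn and Jup, and leaving out any 1 D2A1 library of batch 2 or 3 ended that of Cldn9. Pkp1 was lost in 9 of 13 alternatives and Jup in 8. In D2.OR 1 gene was called, beside 3.85% of all genes (2.28% higher, 1.57% lower). This was Gja1, lower in batch 1 (-1.61 ± 0.32, adjusted p = 0.0416), at 34.4 TPM in 2D and 48.2 in 3D against 97.2 to 165 in batches 2 and 3, a call that any 1 library of batch 2 or 3 of that line could end. In D2.OR Cldn1 was not called (-0.41 ± 0.27, adjusted p = 0.432), and its libraries spanned 1.0 to 2.54 TPM. Cdh1 moved with batch 1 in D2.OR, and Vim in D2A1 (2482 TPM in 2D in batch 1 against 733 and 794), and their part in these differences was not tested.

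**Figure D5:**
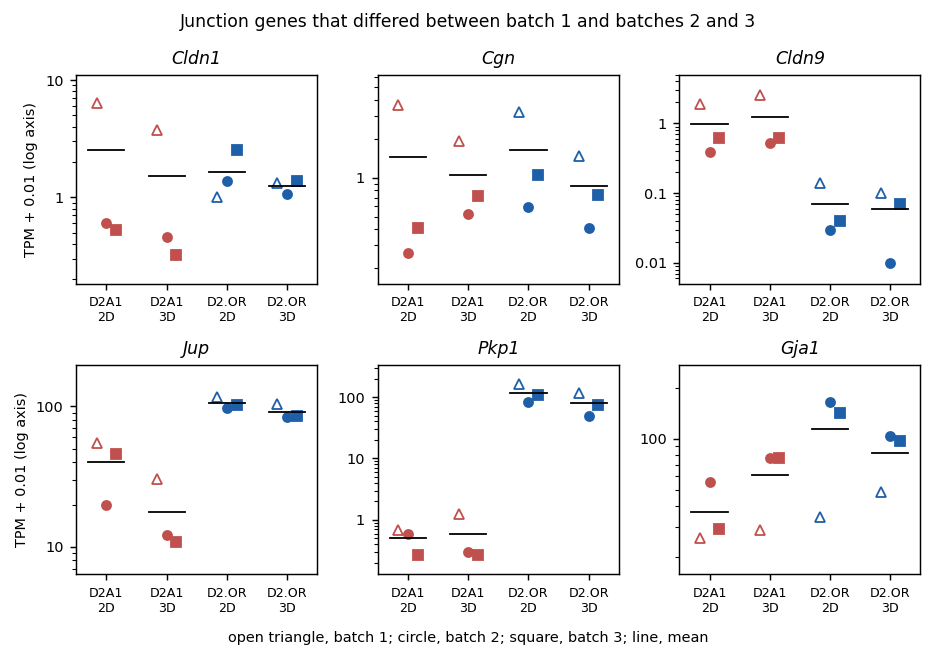
TPM + 0.01 (log axis) in each library of the 6 junction genes called between batch 1 (open triangles) and batches 2 and 3 (circles and squares) in D2A1 or D2.OR. Cldn1 stands at 6.39 and 3.75 TPM in batch 1 of D2A1, and Gja1 of batch 1 is the lowest value in each of the 4 groups.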

How the data were processed

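RNA-seq libraries were made from D2A1 and D2.OR cells in 2D and 3D, with 3 replicates in each of 4 groups. The authors trimmed reads with Trimmomatic 0.32, aligned them with STAR 2.5.3 to GRCm38 and deposited RSEM 1.3.0 expected counts, TPM and FPKM per gene, and FastQC 0.11.4 was used for read quality, per the labels' processing notes. The deposited expected counts were rounded to whole numbers (10.7% to 11.8% of all values, those of 0 included, were not whole) and were tested with edgeR 4.0.16 under R 4.3.3. The deposited TPM served as levels per length, and the deposited FPKM values were not used.

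Genes were kept by filterByExpr with a minimum count of 10, which left 16823 of 52550. TMM scaling was followed by the quasi-likelihood test over all 4 groups with the replicate number as a block and Benjamini-Hochberg adjustment over all genes at 0.05. Log2 fold changes carry a standard error. DESeq2 1.42.0 and limma 3.58.1 on log2(TPM + 1) and log2(TPM + 0.1) were alternatives. For a group at 3 counts or fewer in every library, folds are bounds computed from a floor of 3 counts per library. Same-numbered libraries deviated together, with correlations of 0.076 to 0.511 over 18 pairs (median 0.267), and the 36 pairs of unlike number had a median of -0.195. Counting error follows depth, 47589611 to 73325069 counts per library.

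On simulated counts of the 2D comparison of the lines (16823 genes, 200 changed), 44% of genes changed 2-fold and 76% of those changed 4-fold were recovered, and 3 others were called. In the data that comparison called 49.8% of genes, so the recovery rates of the simulation do not carry over to it. The members and gene lists were chosen with earlier results of these data known. Values per library were given for members with a mean of at least 1 TPM in a group and for others that a result turned on. Promoter windows are those of RefSeq for GRCm38.p6.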

Additional observations from a re-analysis of the deposited data

Results flagged for a closer look

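For 5 junction genes, singled out for this pattern, the value was lower in 3D than in 2D in every batch of D2.OR and higher in every batch of D2A1, by as little as 0.04 on the log2 scale for Epcam in batch 3 of D2.OR. The share of all genes with such a pattern was not determined. The difference between the lines in the log2 change from 2D to 3D (D2.OR minus D2A1) was -2.75 for Dsp, -3.42 for Pkp3, -2.80 for Epcam, -3.25 for Cldn4 and -2.33 for Ocln. By edgeR's quasi-likelihood interaction none of the 5 passed the threshold, with an adjusted p of 0.0892 for Dsp, 0.0716 for Pkp3, 0.11 for Epcam, 0.168 for Cldn4 and 0.3 for Ocln. Of these, Cldn4, Ocln and Epcam rest on few counts in D2A1. Epcam was at the floor in D2A1 in 2D, so that its value is no measure of size. Without batch 1, Dsp, Pkp3 and Epcam passed.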

How the results depend on the processing

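Of 4182 log2 fold changes of the 32 junction genes under alternatives, 3970 kept their side of the threshold, 102 passed it anew and 110 no longer passed. Signs turned in 131, and 0 of these belonged to a result called as reported. Fold bounds leaving out each replicate were added after seeing the data. Without the replicate block the junction genes called numbered 21 for the lines in 2D, 16 in 3D and 0 for culture in either line and for the interaction, and those of the other lists 47, 49, 0, 0 and 0. The pairing changed no call count of the lines by over 1.5 times. Restricting the junction genes to those over the filter in 3 libraries of each line, an alternative added after seeing the data, gave 11 in 2D and 11 in 3D, since fewer genes were tested. By DESeq2 the junction genes called were 4 for culture in D2.OR, 7 in D2A1, 4 for the interaction, and 8 for batch 1 in D2.OR; those of the other lists were 12, 24, 9 and 19, and 25 for batch 1 in D2A1. Without the filter the junction counts were 3, 5, 2 and 5, and the other lists gave 1 for the interaction and 19 for batch 1 in D2.OR. By limma on log2(TPM + 1) junction counts were 2 for culture in D2.OR, 1 in D2A1, 2 for batch 1 in D2.OR and 3 in D2A1, with 8 of the other lists there. On log2(TPM + 0.1) junction counts were 1 for culture in D2A1, 0 for batch 1 in D2.OR and 3 in D2A1, while culture in D2A1 gave 2 of the other lists. Leaving out replicates or single libraries gave 17 to 23 junction genes for the lines in 2D, 14 to 19 in 3D, 0 to 4 for culture in D2.OR, 0 to 12 in D2A1, 0 to 8 for the interaction, 0 to 2 for batch 1 in D2.OR and 2 to 5 in D2A1. For the other lists the ranges were 36 to 60, 40 to 55, 0 to 13, 0 to 37 and 0 to 24 for the first 5 of these. The highest culture and interaction counts came without replicate 1. The cause of these shifts was not tested.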

Other observations

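Outside the junction genes, E-cadherin (Cdh1) was lower in 3D than in 2D in D2.OR, with a log2 fold change of -1.36 and an adjusted p of 0.0215 by edgeR. In D2A1, Snai2 was lower in 3D (-1.22, adjusted p = 0.0234), as was Zeb2 (-0.67, adjusted p = 0.0397). Leukocyte markers summed to 2.37 to 32.18 TPM in the 12 libraries, most of it Cd68, with Ptprc at 0.05 TPM or less, and endothelial markers summed to 0.63 TPM or less. Basal markers summed to 3.11 to 10.34 TPM in D2A1 and 12.3 to 48.05 in D2.OR.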
